A study of Mus musculus with 8 samples.

Results

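The 14105 GC-poor promoters described here are windows reaching 1 kb to either side of the 5′-most start of a mouse protein-coding gene, with a GC content under 55% in the reference genome and no other protein-coding start on the opposite strand within 1 kb. They make up most of the 21951 protein-coding windows examined; 5462 windows of 55% GC and over (GC-rich) and 2384 windows with a second start on the opposite strand (head-to-head) form the remainder. Membership follows from sequence and annotation, although the class itself was proposed with earlier results of these data known. Peaks were then assigned to a window when they overlapped it by at least 1 bp.

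R-loops form when a transcript re-anneals to its DNA template behind RNA polymerase, leaving the other DNA strand unpaired. They are best known at CpG island promoters, where a G-rich transcript stabilises the hybrid. Promoters with few CpG dinucleotides more often belong to genes used in particular tissues, such as receptor, immune, muscle and secreted-protein genes, and many of them are silent in any given cell type. RTEL1 is a helicase that unwinds telomeric loops and G-quadruplexes (G4s, folded structures of G-rich DNA), and RNaseH1 degrades the RNA of RNA-DNA hybrids.

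DNA-RNA immunoprecipitation and sequencing (DRIP-seq) was carried out on mouse embryonic fibroblasts of the line Rtel1F/F;WT RNH1-GFP, which carry floxed alleles of Rtel1 and express wild-type RNaseH1-GFP on addition of doxycycline. Every group came from this line, so the control cells carried the floxed alleles and the transgene too. The GFP mock group received a GFP adenovirus and mock treatment. The GFP DOX group received the same virus and, after 48 h, doxycycline at 2 µg/ml for another 48 h. The Cre mock and Cre DOX groups received a Cre-GFP adenovirus, which deletes Rtel1, with mock or doxycycline treatment on the same schedule. Each group is represented by 1 library, made from 3 pooled immunoprecipitations with the S9.6 antibody. DNA was cut with 5 restriction enzymes before immunoprecipitation, so the size of the captured fragment depends on local sequence. A peak list holds no expression values, and neither loss of Rtel1 nor induction of RNaseH1 could be checked in it.

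In what follows, runs of 4 values are always in the order GFP mock, GFP DOX, Cre mock, Cre DOX. The lists held 87613, 60219, 91097 and 105081 peaks, and the sequencing depth behind them is unknown. The narrowest peak differed between lists, at 106, 107, 132 and 213 bp, so the lists were not called at one resolution. Because each condition had 1 library, the spread between replicates is not known, and the lists are compared as descriptions without a test. Intervals in brackets are exact (Clopper-Pearson) 95% intervals of a share; they cover counting error over windows only, and windows are not replicates of a condition.

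To show what lies under these peaks, the sequence of several of them is given here as found in the reference, read 5′ to 3′ in the direction of the gene (GRCm38, from RefSeq). They come from windows with strong peaks in all 4 lists, in Cre mock alone, or in both mock lists and neither DOX list. Bounds, positions and sequences are those of the Cre mock peaks, and capitals mark CpG dinucleotides. The peak of Taco1 (chr11:106066691-106066907, plus strand, intron) has 20 CpGs, and that of Tbx18 (chr9:87730311-87730452, minus strand, intron) has 23; the GFP mock peak of Tbx18 was longer, at 509 bp, and was annotated to a coding exon. The peaks of Zfp750 (chr11:121518188-121518371, minus strand, intron) and Gjb6 (chr14:57132370-57132630, minus strand, intron) have 9 and 8. The peaks of 4931409K22Rik (chr5:24556407-24556551, minus strand, intron) and Crp (chr1:172696952-172697118, plus strand, upstream of the gene) have 0 CpGs, and each has 1 predicted G4. The Zfp750, Gjb6 and Crp peaks lay mostly outside the promoter window and reached into it at its edge.
Taco1: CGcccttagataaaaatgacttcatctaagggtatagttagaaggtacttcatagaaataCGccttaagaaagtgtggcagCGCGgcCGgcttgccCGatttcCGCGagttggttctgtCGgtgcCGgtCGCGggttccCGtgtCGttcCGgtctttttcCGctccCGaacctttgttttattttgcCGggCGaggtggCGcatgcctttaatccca
Tbx18: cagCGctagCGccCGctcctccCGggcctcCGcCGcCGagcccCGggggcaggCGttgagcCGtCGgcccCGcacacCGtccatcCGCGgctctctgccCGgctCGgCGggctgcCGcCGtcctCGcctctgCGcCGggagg
Zfp750: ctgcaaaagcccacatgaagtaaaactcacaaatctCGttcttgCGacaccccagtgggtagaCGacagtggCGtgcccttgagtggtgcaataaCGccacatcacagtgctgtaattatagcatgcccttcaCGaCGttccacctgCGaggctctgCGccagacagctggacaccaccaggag
Gjb6: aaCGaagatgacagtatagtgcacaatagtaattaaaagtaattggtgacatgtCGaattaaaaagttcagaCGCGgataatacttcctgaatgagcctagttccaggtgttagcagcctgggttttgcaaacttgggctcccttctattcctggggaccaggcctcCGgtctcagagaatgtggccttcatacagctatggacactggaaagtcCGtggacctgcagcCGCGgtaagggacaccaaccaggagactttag
4931409K22Rik: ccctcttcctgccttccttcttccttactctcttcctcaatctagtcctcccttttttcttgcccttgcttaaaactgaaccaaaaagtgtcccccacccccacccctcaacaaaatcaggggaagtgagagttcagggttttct
Crp: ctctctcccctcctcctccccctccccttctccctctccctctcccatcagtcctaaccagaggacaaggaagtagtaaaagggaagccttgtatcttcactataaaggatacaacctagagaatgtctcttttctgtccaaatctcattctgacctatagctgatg
GC-poor promoters thus held strong peaks both over CpG-dense stretches and over stretches without a CpG.

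Few GC-poor promoters held a peak. In GFP mock 1555 of 14105 windows did so (11.0%, 10.5 to 11.6), beside 23.3% of all protein-coding windows. In GFP DOX the number was 1170 (8.29%, 7.84 to 8.76), beside 19.6% of all windows. In Cre mock it was 1990 (14.1%, 13.5 to 14.7), beside 28.0%, and in Cre DOX 1505 (10.7%, 10.2 to 11.2), beside 20.1%. Every list thus had a lower share at GC-poor promoters than over all promoters, and Cre mock had the highest share. GC-rich windows held a peak in 52.7%, 44.1%, 57.3% and 40.2% in the same order, which is 4.78, 5.31, 4.06 and 3.77 times the GC-poor share. Head-to-head windows lay between them, at 29.0%, 30%, 43.4% and 30.1%.

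**Figure D1:**
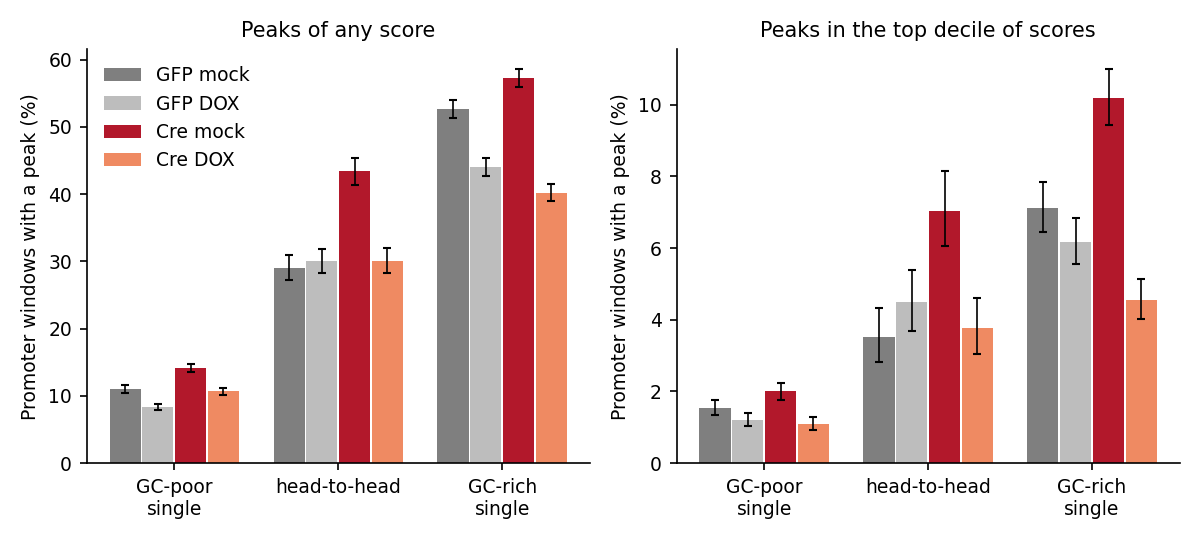
Share of promoter windows with a peak (percent, y axis) for GC-poor, GC-rich and head-to-head promoters (x axis) in each of the 4 lists, for peaks of any score and for the top decile of scores; error bars are exact 95% intervals over windows. GC-poor promoters have the lowest bar in every list, from 8.29% to 14.1% for any score.

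The same order of classes held for the strongest peaks. A top-decile peak, one with a score (10 times −log10 of the q-value, rounded down) of at least 33, 28, 33 or 31 according to the list, was found in 217 GC-poor windows in GFP mock (1.54%, beside 3.14% of all windows). The numbers were 170 in GFP DOX (1.21%, beside 2.80%), 282 in Cre mock (2.00%, beside 4.59%) and 155 in Cre DOX (1.10%, beside 2.25%). At GC-rich windows the shares were 7.12%, 6.17%, 10.2% and 4.56%. Cre mock had the highest share of GC-poor windows on this measure too, and Cre DOX the lowest.

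GC-poor windows took a small part of each list, and the median strength of their peaks was close to that of all peaks. The peaks overlapping them numbered 1648, 1319, 2202 and 1630, which is 1.88%, 2.19%, 2.42% and 1.55% of the lists. Of these, 30, 28, 41 and 44 reached into more than 1 GC-poor window. The median width of the peaks was 300 bp, 361 bp, 380 bp and 522.5 bp. Median fold enrichment was 3.51, 3.51, 3.46 and 3.01, beside 3.54, 3.53, 3.48 and 3.12 over all peaks. Of the peaks in GC-poor windows, 13.0%, 12.8%, 12.7% and 9.08% were in the top decile of scores. Over all peaks that share was 10.4%, 10.5%, 10.7% and 10.7%, so Cre DOX differed in direction. Peaks covered 1.98%, 1.95%, 3.39% and 3.03% of the bases of GC-poor windows, beside 1.33%, 1.18%, 1.75% and 3.27% of the genome. In Cre DOX, GC-poor promoters were therefore covered less than the genome as a whole, whereas in the other lists they were covered more.

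The questions the design asks are what deletion of Rtel1 does to R-loops and what RNaseH1 does in each genotype. At GC-poor promoters the Cre mock share was 1.28 times the GFP mock share, against 1.09 times at GC-rich and 1.5 times at head-to-head promoters. With top-decile peaks the order was different, at 1.30 for GC-poor, 1.43 for GC-rich and 2.00 for head-to-head promoters. The GFP DOX share was 0.752 times the GFP mock share, and the Cre DOX share was 0.756 times the Cre mock share. At GC-rich promoters those ratios were 0.837 and 0.702, and at head-to-head promoters 1.04 and 0.693. With each list limited to its 60219 highest-scoring peaks, the GFP DOX share of GC-poor windows was 1.07 times that of GFP mock, so the order of these lists depended on the number of peaks kept. The Cre DOX to Cre mock ratio was 0.594 under the same limit.

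Among GC-poor promoters the share with a peak was greater at higher GC content, with 1 exception in Cre DOX between 35 and 45% GC. Under 35% GC (719 windows) it was 2.09%, 0.834%, 2.09% and 3.34%. At 35 to 40% GC (1514 windows) the values were 4.16%, 2.44%, 3.76% and 6.74%. At 40 to 45% GC (2615 windows) the shares were 4.51%, 2.52%, 4.82% and 5.74%. At 50 to 55% GC (4947 windows) they were 19.3%, 15.9%, 26.1% and 16.5%. The lists therefore changed order along this range, Cre DOX being highest in the most AT-rich windows and Cre mock in those nearest the GC limit. Under 35% GC the exact 95% intervals of Cre DOX (2.15% to 4.93%) and Cre mock (1.17% to 3.42%) overlapped, whereas at 35 to 40% GC Cre DOX (5.53% to 8.12%) lay above Cre mock (2.86% to 4.85%). Windows of 54 to 55% GC held a peak in 25.2%, 21.5%, 33.9% and 22.9%, and those of 55 to 56%, just outside the class, in 32.3%, 26.5%, 40.9% and 25.6%.

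The ratio of Cre DOX to Cre mock moved from above 1 to below 1 along the same range. It was 1.60 under 35% GC, 1.79 at 35 to 40%, 1.19 at 40 to 45%, 0.821 at 45 to 50% and 0.633 at 50 to 55%. The ratio of GFP DOX to GFP mock was below 1 in every bin, at 0.40, 0.587, 0.559, 0.684 and 0.821. Repeat-masked sequence made up more than 50% of 17.5% of the Cre DOX peaks in GC-poor windows, against 16.3%, 9.25% and 10.6% in the other lists. Over all peaks of each list that share was 63.8%, 63.1%, 54.1% and 75.2%, so Cre DOX was the most masked list genome-wide too. In windows under 45% GC, Cre DOX exceeded Cre mock by 1.61 percentage points with all peaks and by 0.37 points with only peaks that were at most 50% masked. The difference was likewise smaller with top-decile peaks, at 0.06 points (50 and 47 windows), and with a −log10 q of at least 2, at 0.35 points. The part that peak strength, peak width and repeats played in this order was not tested.

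**Figure D2:**
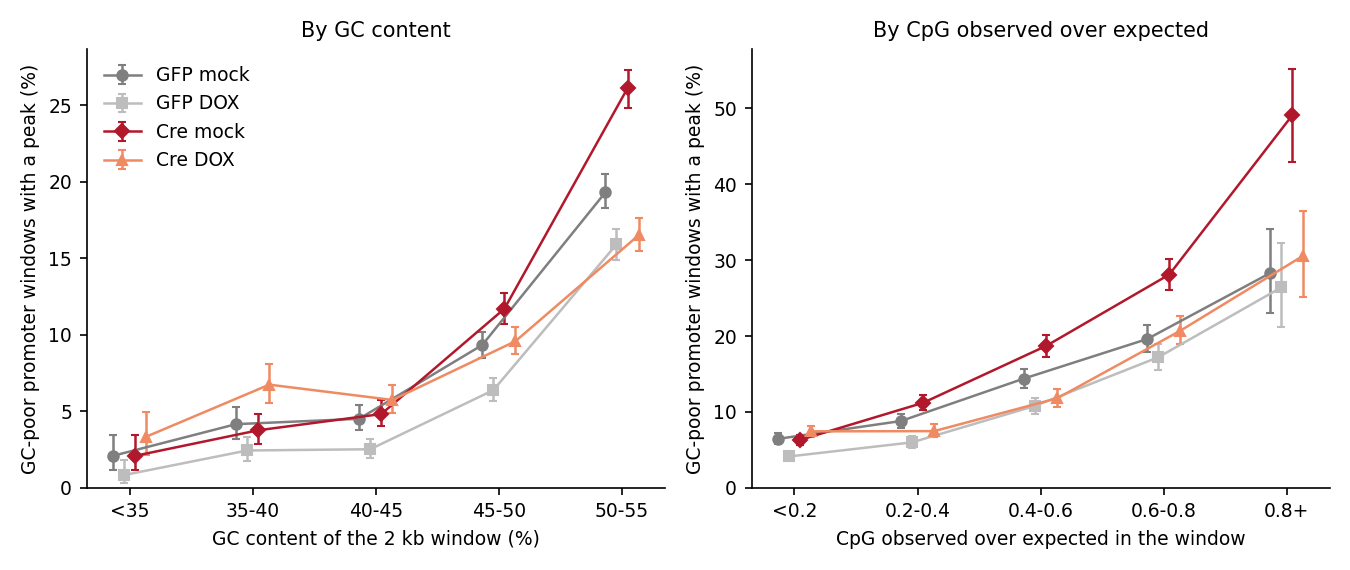
Share of GC-poor windows with a peak (percent, y axis) by GC content of the window (left, percent) and by CpG observed over expected (right, a ratio), with 1 line per list and exact 95% intervals over windows as error bars. Cre mock reaches 26.1% in the windows of 50 to 55% GC and 49.1% in those of the highest CpG density.

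CpG density separated the windows further. It is given as CpG observed over expected, the number of CpGs divided by the number that the C and G content of the window would give at random order. In the 5057 windows under 0.2 the share with a peak was 6.45%, 4.13%, 6.31% and 7.44%. In the 265 windows of 0.8 and over it was 28.3%, 26.4%, 49.1% (42.9 to 55.2) and 30.6%. Cre mock thus stood apart from the other lists at the CpG-dense end and not at the CpG-poor end. The Cre mock to GFP mock ratio was 0.979 under 0.2, then 1.27, 1.30 and 1.43 in the bins between, and 1.73 at 0.8 and over. With equal numbers of peaks per list these ratios were 1.01, 1.11, 1.36, 1.42 and 1.65.

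The same order was seen within windows of similar GC content. Within windows of 50 to 55% GC, the Cre mock share was 16.8% at the lowest CpG density and 52.2% at the highest, and the GFP mock share was 14.9% and 30.6%. Within windows of 45 to 50% GC, Cre mock had 7.83% and 40%, and GFP mock had 8.80% and 16%, the higher value of each resting on 50 windows (26.4 to 54.8 and 7.17 to 29.1, which overlap). In the 2225 windows with a CpG ratio of at least 0.6, 681 held a Cre mock peak and 459 a GFP mock peak, a difference of 9.98 percentage points. That difference was positive under each of the 8 other ways of counting, from 1.48 to 10.11 points. Under a CpG ratio of 0.2 the difference was −0.14 points and changed sign with the way of counting.

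Peaks lay in the more GC-rich stretches of these windows. The median GC content of the peak was 55.7% in GFP mock, against 49.7% in the rest of the same windows. It was 54.2% against 50.5% in GFP DOX, 54.7% against 49.9% in Cre mock and 50.3% against 49.3% in Cre DOX. The peak had the higher GC content in 74.9%, 66.2%, 68.6% and 58.4% of pairs of peak and window. In 52.9%, 46.1%, 49.0% and 31.9% of pairs the peak itself reached 55% GC, so many peaks in GC-poor windows sat on GC-rich islands within them. Cre DOX peaks were the least displaced towards GC. At GC-rich promoters the median difference between peak and rest was 12.6, 10.9, 10.9 and 8.08 points, against 6.80, 4.25, 5.22 and 1.87 at GC-poor promoters.

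Windows with a peak also differed from those without in features that had not defined the class. Over all GC-poor windows the median CpG ratio was 0.281, and 76.8% had a predicted G4, called by G4Hunter in windows of 25 bases at an absolute score of 1.5. GFP mock windows with a peak had a median CpG ratio of 0.472 against 0.266 in those without. A predicted G4 on the coding strand was present in 78.0% of them against 58.4%, and the 3 other lists gave 78.7%, 77.2% and 73.8% in windows with a peak. G4s follow GC content, so the comparison was repeated within 50 to 55% GC. There, 20.6% of windows with a coding-strand G4 held a GFP mock peak, against 13.3% of those without, and in Cre mock the shares were 26.7% and 22.8%. For G4s on the template strand the corresponding shares were 19.9% and 17.7% in GFP mock and 25.8% and 26.9% in Cre mock.

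The restriction fragment over the start was longer in windows with a peak. Its median was 1786 bp in GFP mock windows with a peak and 1219 bp in those without. When starts were divided into 4 groups by fragment length, at 741, 1274 and 1971 bp, the GFP mock share was 5.96%, 7.74%, 11.0% and 19.3%. In Cre mock it was 7.27%, 8.99%, 14.4% and 25.7%. AT-rich sequence holds more sites for these enzymes, but within 50 to 55% GC the longest fragments also had the highest share, the Cre mock values being 21.3%, 17.5%, 24.0% and 33.8%. Fragment length is thus a property of the assay that moved with the result, and its part in it was not tested.

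The TATA motif, searched as TATAAA on the coding strand 40 to 20 bases before the start, was present in 2.94% of GC-poor and 1.28% of GC-rich windows. It was found in 2.44% of GFP mock windows with a peak and 3.00% of those without, and in 2.11% and 3.08% for Cre mock, whereas Cre DOX had 2.92% and 2.94%. Within 50 to 55% GC, 72 windows had the motif, and 20.8%, 13.9%, 18.1% and 18.1% of them held a peak, against 19.3%, 15.9%, 26.2% and 16.5% of those without it. Windows with an opposite-strand long non-coding RNA start within 1 kb (696 windows) held a peak in 14.9%, 13.5%, 22.1% and 16.1%, against 10.8%, 8.02%, 13.7% and 10.4% of the other windows. Within 50 to 55% GC the Cre mock shares were 28.1% and 25.9%. GC skew, the excess of G over C on the coding strand after the start, was above 0 in 69.5% of GFP mock windows with a peak and 68.6% of all GC-poor windows. In windows of 50 to 55% GC, 27.1% of those with positive skew held a Cre mock peak, against 23.6% of the rest.

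Peaks were most frequent just downstream of the start. In bins of 100 bp, coverage of GC-poor windows was highest from 100 to 200 bp after the start in both GFP lists (3.43% in mock, 2.83% in DOX) and in Cre mock (5.19%), whereas Cre DOX had its highest bin at 200 to 300 bp (3.54%). The lowest bins, all in the upstream part, had 1.21%, 1.16%, 2.19% and 2.52%. The downstream side was covered 1.74, 1.42, 1.45 and 1.21 times as much as the upstream side, beside 1.85, 1.49, 1.53 and 1.32 times at GC-rich promoters. A peak lay over the start itself in 22.2%, 28.1%, 28.2% and 27.4% of pairs at GC-poor promoters, against 40.1%, 40.4%, 44.4% and 43.6% at GC-rich promoters. Peaks of GC-poor windows thus lay more often downstream, and fewer of them reached over the start than at GC-rich promoters, where peaks were also wider.

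**Figure D3:**
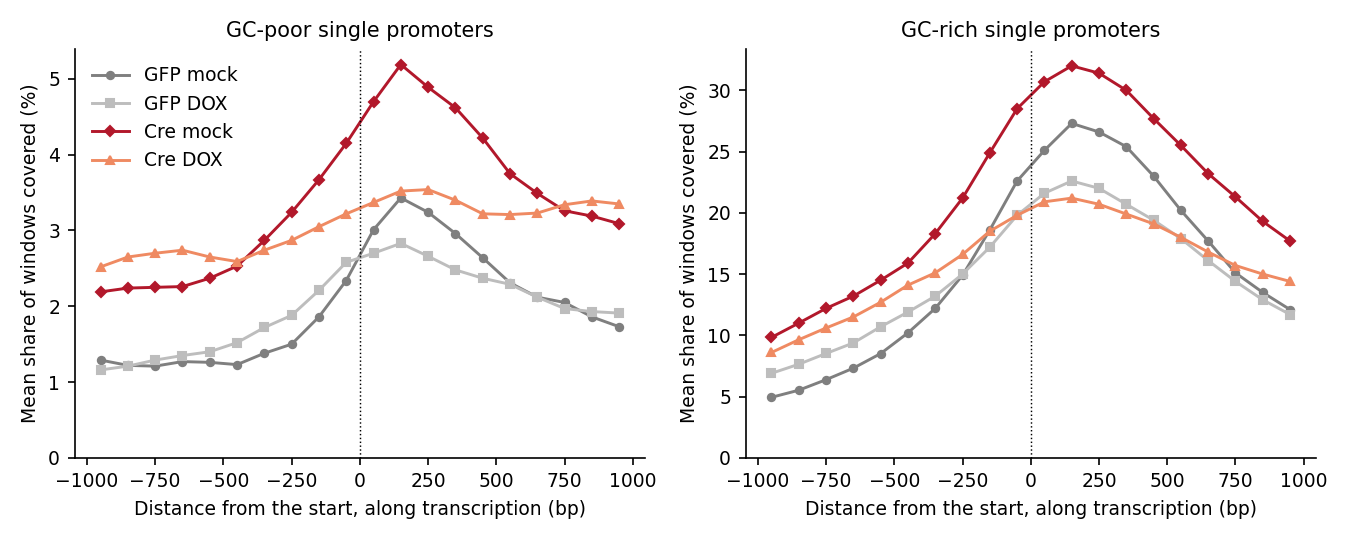
Percent of GC-poor windows covered by a peak (y axis) in bins of 100 bp by distance from the gene start in bp (x axis, direction of transcription to the right), with 1 line per list. Coverage is highest within 300 bp after the start in every list, and Cre mock reaches 5.19%.

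A peak at a GC-poor promoter was usually present in few of the lists. In all, 3473 windows (24.6%) held a peak in at least 1 list, against 75.6% of GC-rich windows. Of these, 1886 (54.3%) had it in 1 list, 764 (22.0%) in 2, 486 (14.0%) in 3 and 337 (9.70%) in all 4. At GC-rich promoters the shares were 25.9%, 22.2%, 21.1% and 30.8%. Among windows with any top-decile peak the classes were closer, 73.4% of GC-poor and 68.3% of GC-rich windows having it in 1 list. The share of these windows with it in all 4 was the higher at GC-poor promoters (5.78% against 3.69%). Taken over all windows of the class the order was the reverse, at 0.234% of GC-poor and 0.696% of GC-rich windows. Peaks found in more lists were stronger and wider. The best Cre mock peak had a median score of 18 and a median width of 279 bp where no other list had a peak, and 27 and 918 bp where all 4 did.

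Cre mock held the most windows that no other list shared. There were 700 such windows, whereas GFP mock had 516, Cre DOX 452 and GFP DOX 218. Both mock lists and neither DOX list shared 204 windows, and both DOX lists and neither mock list shared 56. Both Cre lists without either GFP list shared 177 windows, and the reverse 67. At GC-rich promoters 366, 143, 417 and 144 windows had a peak in that list alone, so Cre mock led there too, and the Cre pair and the GFP pair shared 136 and 132. Windows with a Cre DOX peak alone were more AT-rich than those of the other lists alone. Of them, 27.0% were under 45% GC, against 11.8%, 5.96% and 9.0%. They were not more AT-rich than the class, of which 4848 of 14105 windows were under 45% GC. Their median GC content was 48.8%, against 47.8% over all GC-poor windows. The peaks of Cre DOX alone were over 50% repeat-masked in 26.1%, against 18.4%, 9.17% and 11.4%. Over all peaks of the lists that share was 63.8%, 63.1%, 54.1% and 75.2%.

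**Figure D4:**
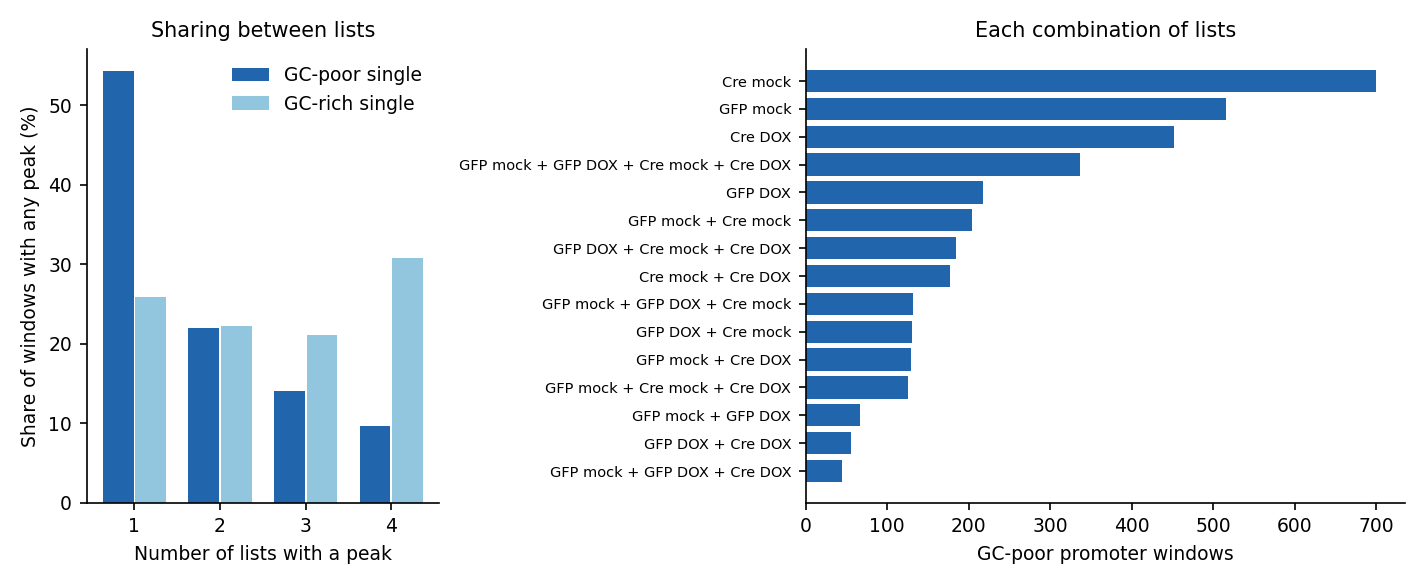
Number of GC-poor windows (x axis) for each combination of lists that held a peak of any score (y axis). The longest bars are windows with a peak in 1 list, led by Cre mock alone at 700.

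Most mock peaks at GC-poor promoters had no counterpart after doxycycline. Of 1555 windows with a GFP mock peak, 974 (62.6%, 60.2 to 65) had none in GFP DOX. Of 1990 with a Cre mock peak, 1167 (58.6%, 56.4 to 60.8) had none in Cre DOX. Absence ran in the other direction as well, since 50.3% of GFP DOX windows had no GFP mock peak and 45.3% of Cre DOX windows had no Cre mock peak. Across genotypes, 48.7% of GFP mock windows had no Cre mock peak and 59.9% of Cre mock windows had no GFP mock peak. Each of these shares was lower at GC-rich promoters for peaks of any score. A peak was also more frequent there among all windows, at 44.1% against 8.29% in GFP DOX and 40.2% against 10.7% in Cre DOX. The part of that difference in the absences was not tested. There, 35.7% of GFP mock windows had no GFP DOX peak and 41.4% of Cre mock windows had no Cre DOX peak, and in the other direction 23.1% and 16.4% had no mock peak. Across genotypes the GC-rich values were 23.0% and 29.2%. With top-decile peaks most of these differences were smaller or turned. Here 73.3% of GC-poor and 72.5% of GC-rich GFP mock windows had no GFP DOX peak, and 76.2% and 76.0% of Cre mock windows had no Cre DOX peak. In the other direction 65.9% and 68.2% of GFP DOX windows had no GFP mock peak, and 56.8% and 46.2% of Cre DOX windows had no Cre mock peak.

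Absence after doxycycline was less frequent where the other mock library also had the peak. GFP mock windows without a Cre mock peak lacked a GFP DOX peak in 85.2% of cases (82.5 to 87.7), and those with one in 41.2% (37.8 to 44.7). Cre mock windows without a GFP mock peak lacked a Cre DOX peak in 69.7% (67 to 72.3), and those with one in 42.1% (38.7 to 45.6). The same split was present at GC-rich promoters, at 69.6% and 25.5% for GFP and 65.3% and 31.5% for Cre.

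Strong peaks shared by all 4 lists lay at Taco1, at 4931408C20Rik and over a repeat array, among others. There were 33 GC-poor windows with a top-decile peak in every list, 6 of them on the mitochondrial genome. Taco1 encodes an activator of mitochondrial cytochrome oxidase translation, and the intronic peak shown above had scores of 277, 255, 279 and 132. At 4931408C20Rik, whose role is not known here, the scores were 93, 58, 79 and 61. Gm10717 and Gm10718 had scores of 148, 122, 178 and 127 and of 147, 99, 157 and 127, the Cre DOX value being that of 1 peak over both. Gm10722 and Gm11168 shared 1 peak in each list, with scores of 93, 111, 89 and 119. These 4 predicted genes lie together near the centromeric end of chromosome 9 and over 95% of each of their peaks was repeat-masked.

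A further window in this group, Mknk2, was named after its values had been seen. Mknk2 encodes a kinase of the translation initiation factor eIF4E, and its peak lay upstream, reaching into the window from its edge and ending 914 bp before the start in GFP mock. The scores were 540, 292, 432 and 35, the first being the highest in GFP mock of any GC-poor window outside the mitochondrial genome. Fold enrichment was 20.11, 13.13, 17.43 and 3.63. The peak kept nearly the same bounds in all lists, at 740, 714, 757 and 723 bp, and at most 3.96% of it was repeat-masked, so the lists differed here in strength and not in position.

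In Cre mock alone, the 6 highest-scoring top-decile windows were Zfp750, Zfp113, Caprin2, 4931409K22Rik, Tcf4 and Ccdc7a. Zfp750, a transcription factor of epidermal differentiation, scored 115 with a fold enrichment of 7.71. Its peak lay mostly outside the window, 962 to 1145 bp after the start. Zfp113, a zinc finger gene, scored 75 and Caprin2, which encodes an RNA-binding protein, scored 71. The scores of 4931409K22Rik, of Tcf4, which encodes a basic helix-loop-helix transcription factor, and of Ccdc7a were 63, 59 and 58. Their peaks were narrow, from 137 bp at Zfp113 to 208 bp at Caprin2. Windows with a top-decile peak in 1 list and nothing called in the remaining lists numbered 52, 15, 48 and 17. When weaker peaks in the other lists were disregarded, a top-decile peak was in 1 list alone at 121, 72, 155 and 71 windows, so the order of the mock lists depended on the definition.

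The corresponding windows of GFP mock were Eepd1 (score 68), a nuclease gene of stalled replication forks, Dbr1 (67), which encodes the RNA lariat debranching enzyme, 0610009B22Rik (60) and Crygd (59), a lens crystallin gene. Those of GFP DOX were Hydin (62), a gene of ciliary motility, the gastrokine gene Gkn2 (47), Sel1l (46), which acts in protein degradation at the endoplasmic reticulum, and Lgi3 (45). Those of Cre DOX were Gm10719 (107), Ugt3a2 (57), Hsbp1 (46) and Cyp2c54 (42). Gm10719 lies in the repeat array of chromosome 9 described above, where neighbouring windows had top-decile peaks in all 4 lists. Most of the Hydin, Gm10719, Ugt3a2 and Cyp2c54 peaks lay outside the promoter window. The 4 Cre DOX peaks all lay upstream of the gene, and 97.4%, 96.1%, 66.2% and 98.1% of their bases were repeat-masked. Among the GFP mock and GFP DOX peaks of this group the highest masked share was 19.7%, at Hydin, and among the 6 Cre mock peaks above it was 40%, at 4931409K22Rik.

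A top-decile peak in both mock lists with no peak in either DOX list was found at 8 GC-poor windows, and the opposite pattern at 0, which allows a share of up to 0.0213%. The 4 strongest of the 8 were Gjb6, Crp, Snx10 and Tbx18. Gjb6, the connexin 30 gene, scored 83 in GFP mock and 99 in Cre mock. Its peaks lay mostly outside the window, 921 to 1240 bp after the start in GFP mock and 981 to 1241 bp in Cre mock. Crp, the C-reactive protein gene, scored 53 and 50, and its peak reached into the window from its upstream edge. Snx10, a sorting nexin gene, scored 47 and 41, and Tbx18, a T-box transcription factor gene, scored 48 and 38.

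Matrix genes are typically transcribed in fibroblasts, and 42 of the 54 listed have a GC-poor window. Of these, 7, 7, 13 and 7 held a peak, which is 16.7%, 16.7%, 31.0% (17.6 to 47.1) and 16.7%. The interval of each other list was 6.97 to 31.4. The shares over all GC-poor windows were 11.0%, 8.29%, 14.1% and 10.7%, in that order. The matrix windows had a median GC content of 49.9%, against 47.8% over the class. Among all GC-poor windows the shares were 9.33%, 6.38%, 11.7% and 9.58% at 45 to 50% GC. At 50 to 55% GC they were 19.3%, 15.9%, 26.1% and 16.5%. None of the fibroblast peaks was in the top decile of its list. Peaks were present in all 4 lists at 3 of these genes. At Col1a1, the main chain of type I collagen, the scores were 30, 21, 23 and 10. At the collagen VI gene Col6a1 they were 13, 26, 18 and 10, and at Lox, which cross-links collagen, 18, 22, 18 and 14. These are the best peaks of the window in each list and need not coincide. At Col6a1 the Cre DOX peak overlapped none of the other 3, and at Lox it lay upstream of the start whereas the others lay downstream.

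The other matrix genes differed in which lists held a peak. Fbln1 (fibulin 1) scored 25 in GFP mock, 32 in Cre mock and 14 in Cre DOX, and Bgn (biglycan) had no peak in Cre DOX and scores of 13, 12 and 15 elsewhere. Fn1 (fibronectin) had peaks in the GFP lists only, with scores of 19 in GFP mock and 18 in GFP DOX. Col6a3 (24), Prelp (15), Ecm1 (30) and Thbs1 (18) had a peak in Cre mock only. Fbn1 (fibrillin 1) scored 18 in Cre mock and 12 in Cre DOX, and the matrix protease gene Mmp2 scored 13 and 27. S100a4 scored 20 in GFP DOX and 15 in Cre mock, and Fbln2 scored 21 and 16. Timp3 had a peak in GFP mock only (14) and Ccdc80 in Cre DOX only (11). All of these scores lay below the top-decile limits given above.

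Contractile and cytoskeletal genes had 14 GC-poor windows, of which 3, 3, 6 and 4 held a peak (21.4%, 21.4%, 42.9% and 28.6%, beside the class shares of 11.0%, 8.29%, 14.1% and 10.7%). Their median GC content was 52.7%, and among all GC-poor windows of 50 to 55% GC the shares were 19.3%, 15.9%, 26.1% and 16.5%. Lmod1 (leiomodin 1) had no peak in Cre DOX and scores of 30, 50 and 44 in the other lists. Anxa2 (annexin A2) had none in GFP mock and scores of 22, 33 and 47 in the remaining lists. S100a6 was present in every list, with scores of 16, 21, 17 and 24. Acta2, the smooth muscle actin gene, had a peak in Cre mock only, with a score of 15, and Cald1 (caldesmon) likewise, with 25. Tagln (transgelin), another smooth muscle gene, scored 28 in GFP mock and 12 in Cre DOX and had no peak elsewhere, and S100a11 scored 35 in Cre mock and 20 in Cre DOX. These counts rest on few genes, and the intervals of the 4 shares overlapped.

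Genes of tissues other than fibroblasts held some peaks, most of them at shares below those of the class (11.0%, 8.29%, 14.1% and 10.7%). Striated muscle genes had 29 GC-poor windows, of which 2, 2, 6 and 1 held a peak (6.90%, 6.90%, 20.7% and 3.45%). Tnnc1 (cardiac troponin C) had one in every list, with scores of 28, 29, 41 and 37, and Myog (myogenin), Myh6 (cardiac myosin), Nppa (natriuretic peptide) and Tnni3 (cardiac troponin I) had one in Cre mock only, with scores of 44, 30, 29 and 16. White blood cell genes held a peak in 4, 4, 7 and 2 of 49 windows (8.16%, 8.16%, 14.3% and 4.08%), among them the macrophage gene Cd68, with scores of 14, 29, 32 and 31. Liver genes held 0, 1, 3 and 1 among 43, or at most 6.98%, the 0 in GFP mock allowing a share of up to 6.98%. Digestive enzyme genes held 1, 1, 1 and 2 among 36, or at most 5.56%, and epidermal genes 1, 4, 2 and 2 among 34 (2.94%, 11.8%, 5.88% and 5.88%). Median GC content was 51.7%, 48.1%, 47.3%, 46.4% and 44.3% in the order of these gene lists. Among all GC-poor windows of 40 to 45% GC the shares were 4.51%, 2.52%, 4.82% and 5.74%. At 45 to 50% GC they were 9.33%, 6.38%, 11.7% and 9.58%, and at 50 to 55% GC 19.3%, 15.9%, 26.1% and 16.5%. The part of GC content in the shares of these gene lists was not tested. Expression was not measured here, so whether any of these genes was transcribed is not known from these data.

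**Figure D5:**
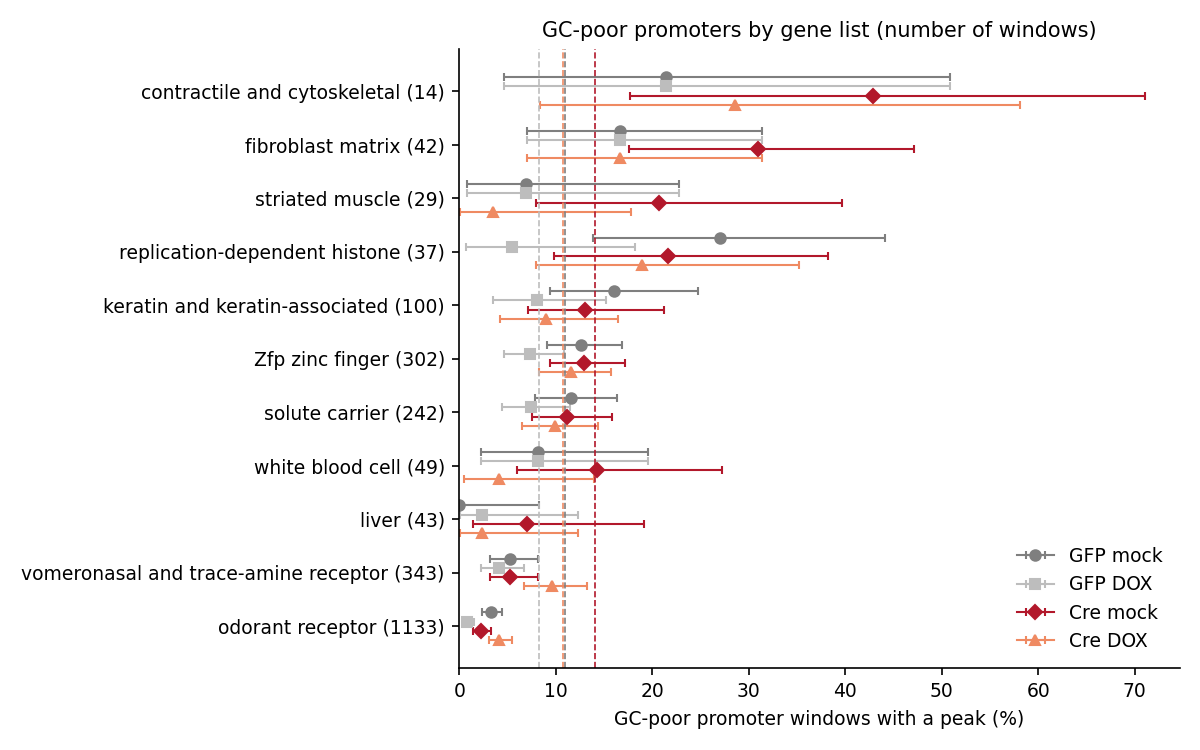
Share of the GC-poor windows of each gene list that held a peak (percent, x axis) in each of the 4 lists, with dashed lines at the share over all GC-poor windows. Odorant receptor genes lie to the left of the dashed lines in every list, at 0.794% to 4.15%.

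The sensory receptor genes, which are silent in most tissues and form large clusters, were the largest family in the class. Of 1133 odorant receptor windows, 37 (3.27%), 9 (0.794%), 25 (2.21%) and 47 (4.15%) held a peak. Of 343 vomeronasal and trace-amine receptor windows, 18, 14, 18 and 33 did so (5.25%, 4.08%, 5.25% and 9.62%). Both families had their highest share in Cre DOX, whereas the GC-poor windows in no list had theirs in Cre mock (15.8%, beside 11.9%, 9.31% and 11.4%). The families also differ from those windows in composition, with a median GC content of 36.4% and 36.7% against 48.7%. Other GC-poor windows of 35 to 40% GC, with the receptor genes left out, had their highest count in Cre DOX as well, at 38, 27, 42 and 62 of 912 windows.

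The remaining families are given by their counts, beside the class shares above. Zfp zinc finger genes held a peak in 38, 22, 39 and 35 of 302 windows, and solute carrier genes in 28, 18, 27 and 24 of 242. Keratin and keratin-associated genes held 16, 8, 13 and 9 among 100, and cytochrome P450 genes 11, 5, 10 and 14 among 99. Replication-dependent histone genes, which are transcribed in S phase, held 10, 2, 8 and 7 among 37 (27.0%, 5.41%, 21.6% and 18.9%). Chemokine, cytokine and interferon-response genes held 3, 2, 3 and 3 among 34. In this list Oasl1, an interferon-induced gene, had the highest scores, of 62, 37, 51 and 220, with a fold enrichment of 1.89, 1.68, 1.75 and 3.01. Its peak was 59.8% to 87.0% repeat-masked. The alarmin gene Il33 had a peak in every list, with scores of 13, 16, 16 and 21. Defensin (64 windows), serpin (58), C-type lectin (53), prolactin (25) and interferon alpha (14) genes held at most 4 windows with a peak in any list.

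The 11 windows of the mitochondrial genome are GC-poor by the same rule but are not nuclear promoters. Of these, 8, 8, 8 and 6 held a peak, and most of them shared wide peaks. The windows of mt-Nd3 and mt-Nd4l shared a narrow peak, of 138, 129 and 139 bp in the first 3 lists, which Cre DOX lacked. The peak over mt-Nd1, mt-Nd2, mt-Co1 and the edge of the mt-Co2 window had scores of 1028, 1156, 1476 and 2235, the highest of any GC-poor window. Its fold enrichment was 3.15, 3.62, 3.67 and 3.89.

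The share of GC-poor windows with a peak also varied between chromosomes. In Cre mock it ran from 7.62% on chromosome 7 to 28.3% on chromosome 15, leaving out chromosomes Y and M. Chromosome 15 had the highest share in GFP mock too, at 20.9%. Within 50 to 55% GC the Cre mock share was highest on chromosome 3 (39.6%), followed by chromosomes 19 (37.4%) and 15 (36.4%). Of the 182 GC-poor windows of chromosome Y, 0 held a peak in any list, which allows a share of up to 1.65%.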

How the data were processed

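DRIP-seq was carried out on 4 libraries of mouse embryonic fibroblasts (GFP mock, GFP DOX, Cre mock, Cre DOX), 1 per condition. Input libraries (4) were not used here, and whether they served as MACS2 controls is not given in the sources used here, so the background behind the fold enrichments and scores is unknown. Reads were processed by the authors with nf-core/chipseq 1.2.1 on mm10, and peaks were called with MACS2 in each library; the stated command names narrow peaks, whereas the deposited lists are in broad-peak format. The deposited columns used were the score, the fold enrichment (a ratio) and the −log10 q-value; the score equalled 10 times −log10 q rounded down for 99.9962% of peaks. No counts were used, so depth is unknown. Groups follow the sample labels.

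Windows were built on GENCODE M21 starts and GRCm38 sequence (Python 3.11.15, numpy 2.4.6, pandas 2.3.3, scipy 1.17.1). The class, its members and the 21 gene lists were chosen with earlier results of these data known. Genes were named by rule: outside the mitochondrial genome, the 6 windows with top-decile peaks in all 4 lists whose lowest score percentile was best (windows that share their peaks count once), the 6 highest in Cre mock alone, the 4 highest in each other list alone, the 4 highest of each pattern shared by both mock or both DOX lists, and every fibroblast matrix window with a peak. One window named by the first part of this rule is not reported here. Windows named outside that rule were members of the gene lists, or Mknk2. The alternatives were the top decile, a −log10 q of at least 2, 60219 peaks per list, 50% of the peak inside the window, 500 bp windows, GC under 50%, peaks at most 50% repeat-masked, and sensory receptor genes left out. The strata of the signed differences were chosen after seeing the data. The scripts were tested on simulated data.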

Additional observations from a re-analysis of the deposited data

Results flagged for a closer look

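In the most AT-rich and CpG-poor GC-poor promoters, the share of windows with a peak differed in sign between the genotypes when DOX was compared with mock. Under 35% GC, Cre DOX minus Cre mock was 1.25 percentage points and GFP DOX minus GFP mock was −1.25 points. At 35 to 40% GC the differences were 2.97 and −1.72 points, and at 40 to 45% GC they were 0.92 and −1.99 points. Under a CpG observed over expected of 0.2 they were 1.13 and −2.31 points. The sign of the Cre difference depended on the way of counting in the last 2 of these strata. At 40 to 45% GC the ratio of Cre DOX to Cre mock was 1.19 with all peaks, 1.00 with top-decile peaks (27 windows in each), 0.972 with 50% of the peak inside the window and 0.924 with peaks at most 50% masked. Under a CpG ratio of 0.2 it was 1.18 with all peaks, 0.945 with top-decile peaks (52 and 55 windows), 0.914 with a −log10 q of at least 2 and 0.936 with equal numbers of peaks, so the genotypes then no longer differed in sign. Below 40% GC the ratio stayed above 1 under each alternative, from 1.44 to 2.00 under 35% and from 1.11 to 2.06 at 35 to 40%. The top-decile counts under 35% GC were 2, 2, 2 and 3 windows, so the GFP lists had equal counts there. With 1 library per condition the difference between genotypes was not tested.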

How the results depend on the processing

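Cre mock had the highest share of GC-poor windows with a peak under all 8 alternatives. Shares are given in the order of the lists used above, and the share of mock windows without a DOX peak follows, first for GFP and then for Cre. With top-decile peaks the shares were 1.54%, 1.21%, 2.00% and 1.10%, and absence was 73.3% and 76.2%. With a −log10 q of at least 2 they were 5.16%, 3.22%, 7.54% and 4.16%, and absence was 73.9% and 70.9%. With equal numbers of peaks they were 7.78% in GFP mock, 9.82% in Cre mock and 5.83% in Cre DOX, GFP DOX being the list that set the number, and absence was 58.0% and 68.6%. With 50% of the peak inside the window they were 9.91%, 7.30%, 12.3% and 8.54%, and absence was 67% and 67.2%. With 500 bp windows they were 7.98%, 6.39%, 10.7% and 7.30%, and absence was 65.8% and 64.5%. Under 50% GC they were 6.53%, 4.19%, 7.65% and 7.52%, and GFP absence was 66.2%. With peaks at most 50% masked they were 9.47%, 7.59%, 12.8% and 8.93%, and without sensory receptor genes 11.9%, 9.08%, 15.4% and 11.3%. Windows with a peak in Cre mock alone numbered 155 with top-decile peaks and 279 under 50% GC; those in GFP mock alone numbered 121 and 220, and 343 with a −log10 q of at least 2. Below a CpG ratio of 0.2, Cre mock minus GFP mock, −0.14 points with all peaks, turned positive with top-decile peaks (0.24), a −log10 q of at least 2 (0.53), equal numbers of peaks (0.06), peaks at most 50% masked (0.45) and sensory receptor genes left out (0.11). The alternatives that keep fewer peaks or narrower windows lower the shares by construction, and the cause of the change in sign was not tested.

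The limits are those of single libraries. No paired analysis was possible because each group has 1 library, and there was no replicate to leave out. Sequencing depth is unknown, and differences between the lists in depth, peak width and calling cannot be told apart from differences between conditions. Peaks in repeats, such as the array on chromosome 9, cannot be tied to the named window alone.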
